A study of Setaria italica with 6 samples.

Results

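Genes whose transcripts were strongly lowered, but still detected, in a foxtail millet mutant are described here. Spikelets of Setaria italica were sampled 3 days after flowering from the mutant Siysl1 and from its wild type, the inbred line Yugu1, both grown in a greenhouse at 30 °C with 14 h of light. Each genotype gave 3 libraries from separate individuals. No other treatment was named for either genotype, and the kind of mutation, the number of independent lines and the plants' age were not given in the sources used here. The titles place all 3 mutant libraries in Siysl1, while the genotype field of replicates 2 and 3 names SiYSL2 and SiYSL3 and only that of replicate 1 names SiYSL1. The titles were followed, and values with replicate 1 alone are given beside the results they touch.

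A gene belonged to the set if it was annotated outside chromosome 8, averaged at least 2 CPM (counts per 1000000 counts of the library) in Yugu1, had at least 1 count over the 3 Siysl1 libraries, and was at least 8-fold lower in Siysl1 after 0.1 CPM was added to both means. The rule found 124 genes among the 36886 of the table. They are 0.695% of the 17831 annotated genes outside chromosome 8 that reached 2 CPM in Yugu1. The difference between the genotypes chose these genes, so it is described and not tested. Another 22 genes of the same level had no Siysl1 count in any library and are not included. The rule turned round, for genes at least 8-fold higher in Siysl1, found 115 genes.

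SiYSL1 takes its name from the yellow stripe-like family. In grasses such as maize, proteins of this family carry iron and other metals across membranes while the metal is bound to phytosiderophores or to nicotianamine, small chelators made by the plant. They serve uptake at the root and the movement of metal through the phloem into developing grain. A spikelet shortly after flowering holds the young grain together with the bracts that enclose it. The study asks by its title whether SiYSL1 takes part in iron uptake, transport and storage in the grain. The files do not pair their identifiers with gene names, and the supplied gene table matched 0 of the 36886, so neither SiYSL1 nor markers of the spikelet's tissues were looked up. The functions of the lowered genes are therefore not given. Seita.9G287400.v2.2 and Seita.4G174600.v2.2 are named by identifier, and other genes are called by their chromosome and level.

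Library totals lay between 30734508 and 32691355 counts in Siysl1 and between 30368325 and 32117652 in Yugu1. Scaled by these totals, the median of the 25117 genes passing edgeR's filter on low counts lay 0.11 higher in Siysl1 on the log2 scale. The trimmed-mean (TMM) scaling of edgeR put it at 0.01. All 124 lowered genes passed that filter, and all 124 were called lower at an adjusted p under 0.05. Of all genes tested, 28.7% were called lower. Since the same contrast chose the 124 genes, nothing is read from this count.

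The lowered genes covered a wide range of wild-type levels. Their Yugu1 means ran from 2.01 to 1881 CPM with a median of 9.21 CPM, while their Siysl1 means ran from 0.0108 to 90.0 CPM with a median of 0.552 CPM. In Siysl1, 81 of the 124 genes were under 1 CPM and 28 were at 2 CPM or more. The median fold was 14.7, a log2 value of -3.88 for Siysl1 over Yugu1, against 0.08 for all annotated genes outside chromosome 8 at the same minimum level. Folds between 8 and 16 were found in 70 genes, between 16 and 32 in 42, between 32 and 64 in 9 and above 64 in 3. The limit cuts through a continuous range. The genes just inside it had folds of 8.01, 8.04 and 8.05, and those just outside 7.998, 7.95 and 7.85.

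**Figure D1:**
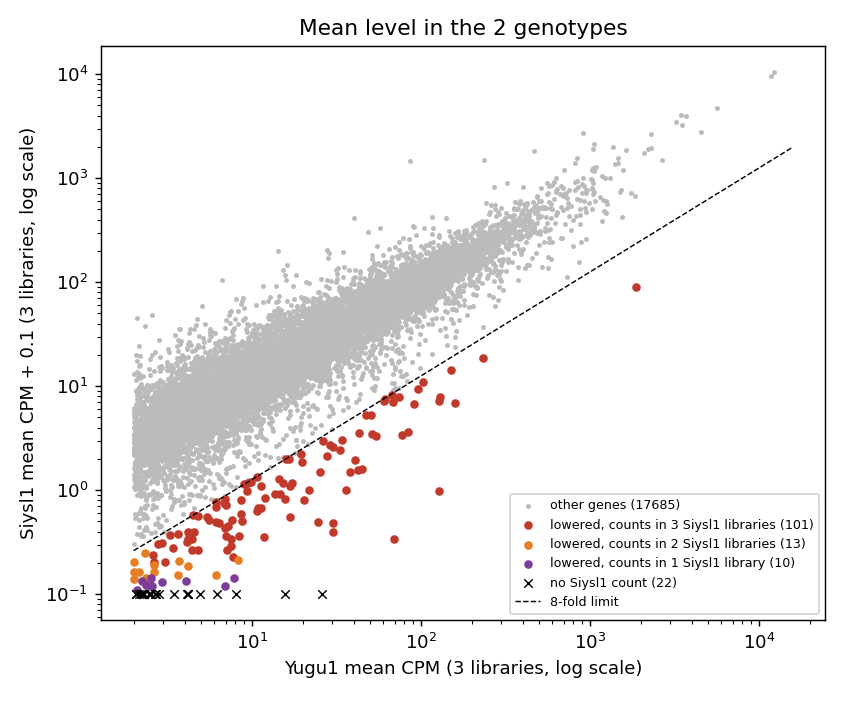
Mean CPM + 0.1 of Siysl1 (vertical axis, log scale) against mean CPM of Yugu1 (horizontal axis, log scale), over 3 libraries each, for the 17831 annotated genes outside chromosome 8 at 2 CPM or more in Yugu1. Coloured points are the 124 lowered genes by the number of Siysl1 libraries with a count, crosses are the 22 genes with no Siysl1 count, and the dashed line marks the 8-fold limit; 1 lowered gene lies far to the right of the others.

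In none of the 124 genes did the genotypes overlap, where 24.7% of all genes tested had every Siysl1 library below every Yugu1 library. The 8-fold limit on the means largely sets the distance between the genotypes, which is given as a description without a share over all genes. The lowest Yugu1 library was at least 8 times the highest Siysl1 library in 99 genes, by a median of 13.0 over the 124, and the smallest such ratio was 4.64. As these bulk libraries were made from whole spikelets, fewer cells of a type and less RNA per cell cannot be told apart.

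**Figure D2:**
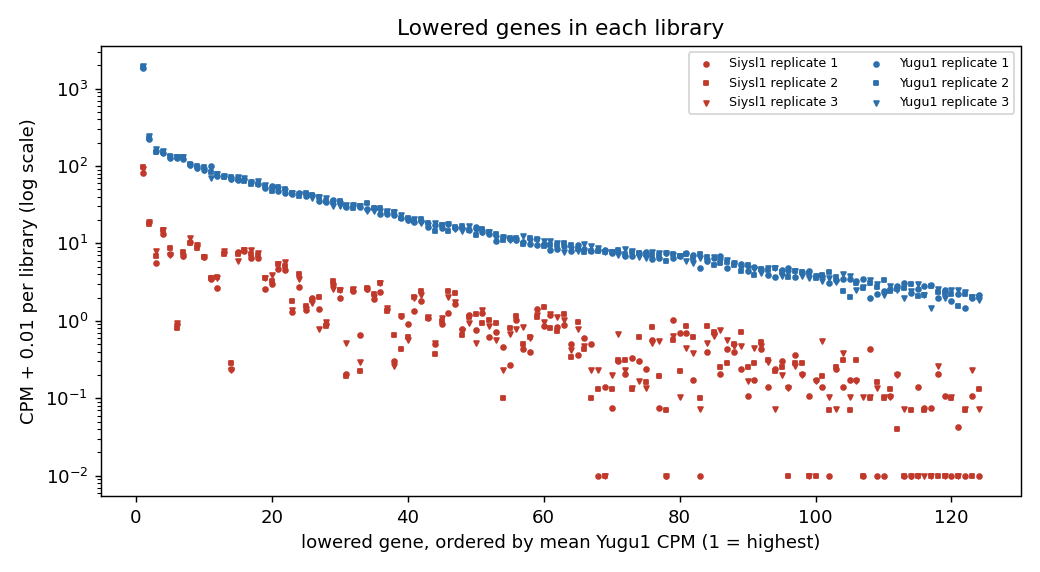
CPM + 0.01 (vertical axis, log scale) of each lowered gene in the 3 Siysl1 libraries (red) and the 3 Yugu1 libraries (blue), with the 124 genes ordered by mean Yugu1 CPM along the horizontal axis. The red points lie below the blue ones in every gene, and the red points along the bottom edge are libraries with 0 counts, mostly among the genes of low Yugu1 level.

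One gene dominated the set. Seita.9G287400.v2.2, on chromosome 9, had 80.7, 96.7 and 92.6 CPM in the Siysl1 libraries, against 1836, 1874 and 1933 CPM in the Yugu1 libraries. The genotypes were far apart, with a 20.9-fold lower level in Siysl1, and the coefficient of variation over the 3 libraries was 9.21% in Siysl1 and 2.60% in Yugu1. Per length, it stood at 108 ± 10.1 FPKM (fragments per kilobase, scaled to library size) in Siysl1 and at 2259 ± 60.3 FPKM in Yugu1 (SD, n = 3 each). That made it the gene of rank 1209 by mean FPKM in Siysl1 and of rank 17 in Yugu1, counted over all 36886 genes. It was the only lowered gene among the 100 genes of highest CPM in Yugu1, and it was still the highest of the 124 in Siysl1.

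Together the 124 genes took 281, 313 and 309 CPM in the Siysl1 libraries, against 4968, 5068 and 5129 CPM in the Yugu1 libraries. These sums are 0.0301% of all counts in Siysl1 and 0.506% in Yugu1. Seita.9G287400.v2.2 alone held 29.9% of the sum in Siysl1 and 37.2% in Yugu1. Without it the other genes summed to 211 ± 9.32 CPM in Siysl1 and 3174 ± 36.1 CPM in Yugu1 (SD, n = 3 each). The 10 genes highest in Yugu1 held 57.2% of the sum in Siysl1 and 61.4% in Yugu1.

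The next genes by Yugu1 level were far below the first and kept clear counts in the mutant. The second, on chromosome 4, had 18.8, 17.8 and 19.1 CPM in Siysl1, against 222, 231 and 244 CPM in Yugu1. The third, on chromosome 5, had 5.66, 6.82 and 7.90 CPM in Siysl1, against 158, 153 and 166 CPM in Yugu1. They were 12.5-fold and 23.1-fold lower, and the Siysl1 libraries were close together in the second gene but spread by a coefficient of variation of 16.5% in the third. Another gene of chromosome 5 had 13.2, 14.7 and 15.0 CPM in Siysl1, against 147, 153 and 156 CPM in Yugu1. The fifth, on chromosome 3, had 7.26, 8.66 and 7.18 CPM in Siysl1, against 128, 133 and 129.5 CPM in Yugu1. These were 10.5-fold and 16.7-fold lower.

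The sixth, on chromosome 9, was unlike the genes around it in the ranking, for it had 0.911, 0.795 and 0.940 CPM in Siysl1, against 126, 129 and 131 CPM in Yugu1. Its 28, 26 and 30 Siysl1 counts show no library apart. It was 131-fold lower, while the other 9 of the 10 highest genes were between 9.50-fold and 23.1-fold lower. The seventh, on chromosome 5, was a short gene, with 19.6 ± 1.31 FPKM in Siysl1 and 353 ± 14.5 FPKM in Yugu1 (SD, n = 3 each), the second highest of the 124 in Yugu1 per length. The following 3 lay on chromosomes 4 and 7, with means of 10.8, 9.26 and 6.67 CPM in Siysl1, against 104, 96.4 and 90.8 CPM in Yugu1.

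With 0.1 CPM added to both means, the median fold was 14.1 for genes between 2 and 5 CPM in Yugu1, 14.7 between 5 and 20 CPM, 14.2 between 20 and 100 CPM and 17.2 at 100 CPM or more. By the plain ratio of scaled counts, the medians of these classes were 28.3, 16.5, 14.7 and 17.4. The added 0.1 CPM lowers the fold of weak genes, and the 8-fold limit holds every class up, so neither set of medians is read as a relation between level and fold. The largest fold was 31.4 in the lowest of these classes and 204 between 20 and 100 CPM. Lowered genes made up 1.28% of the 2803 annotated genes outside chromosome 8 between 2 and 5 CPM and 0.819%, 0.448% and 0.396% in the higher classes. The corresponding counts were 36, 48, 32 and 8 genes. Genes with no Siysl1 count were mostly weak too, with 18 of the 22 under 5 CPM and the highest at 26.1 CPM in Yugu1.

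Among genes with a count in every Siysl1 library, Seita.4G174600.v2.2 on chromosome 4 had the largest fold. It had 7, 9 and 7 counts in the Siysl1 libraries, against 2185, 2191 and 2114 counts in the Yugu1 libraries. All mutant libraries were thus low and alike. Its mean was 0.241 ± 0.030 CPM in Siysl1 and 69.3 ± 2.47 CPM in Yugu1 (SD, n = 3 each), 204-fold lower with 0.1 CPM added. The plain ratio of Yugu1 to Siysl1 counts, scaled by the library totals, was 287, with an exact 95% interval of 191 to 453 that covers counting error only. Per length it stood at 0.533 ± 0.073 FPKM in Siysl1 and 173 ± 5.97 FPKM in Yugu1, the fourth highest of the set in Yugu1.

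The chromosome 9 gene described above, with a 131-fold difference, came next. It was followed, among genes with counts in every Siysl1 library, by a gene on chromosome 2 with 6, 6 and 16 counts in Siysl1, against 949, 919 and 979 counts in Yugu1, 77.5-fold lower. Replicate 3 gave more than the other mutant libraries there, but far less than any Yugu1 library. A second gene on chromosome 9 had 20, 7 and 9 counts in Siysl1, against 956, 924 and 937 counts in Yugu1, 62.6-fold lower. A gene on chromosome 6 had 9, 21 and 8 counts in Siysl1, against 738, 774 and 784 counts in Yugu1, 49.7-fold lower. In these 3 genes a different Siysl1 library was the highest each time. The remaining 5 of the 10 largest folds among genes with counts in every Siysl1 library lay between 28.3 and 35.7, on chromosomes 1, 2, 3 and 9.

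Detection in the mutant was uneven across the set. Counts were present in all 3 Siysl1 libraries for 101 genes, in 2 for 13 and in 1 for 10. The 23 genes that lacked counts in some library had at most 14 Siysl1 counts in all, and their median Yugu1 level was 2.56 CPM, against 14.4 CPM in the 101 others. The libraries without a count were spread, with 12 such genes in Siysl1 replicate 1, 12 in replicate 2 and 9 in replicate 3. In 63 genes the Siysl1 libraries held at least 50 counts together.

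For 8 genes the word detected rests on 1 to 3 counts. The strongest of them in Yugu1, on chromosome 9, had 0, 2 and 0 counts in Siysl1, against 238, 182 and 236 counts in Yugu1, a ratio of 334 with a counting interval of 92.0 to 2761. Another, on chromosome 9, had 1, 0 and 0 counts in Siysl1, against 71, 47 and 79 counts in Yugu1, a ratio of 200.4 with an interval of 35.6 to 7956. With a floor of 3 counts behind each 0, such genes cannot be told at this depth from the 22 that gave no count. Over the 124 genes the lower bound of the ratio's counting interval was at least 8 in 109, and the lowest bound was 6.95. These intervals cover counting error only and were computed on genes picked for a high ratio.

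Within a genotype the spread of the lowered genes was set beside that of other genes in the same range of summed counts. Of those with 200 to 1000 counts in Siysl1, 23 genes had a median coefficient of variation of 11.6% over the 3 libraries, against 10.5% in the 5986 other tested genes of that range. With 50 to 200 counts it was 21.8% in 36 lowered genes and 19.7% in 3641 others, and with at least 1000 counts it was 7.49% in 4 lowered genes and 5.15% in 13825 others. In Yugu1 it was 10.4% in 62 lowered genes with 200 to 1000 counts, against 10.1% in 6239 others, and 5.19% in 58 genes with at least 1000 counts, against 4.51% in 12914 others. The 4 lowered genes with 50 to 200 Yugu1 counts had 15.99%, against 20.2% in 3965 others. The lowered genes thus had the higher median in 5 of these 6 comparisons, which rest on unlike numbers of genes. From the lowest range up, 20 of 36, 13 of 23 and 3 of 4 lay above the others' median in Siysl1. In Yugu1 2 of 4, 33 of 62 and 36 of 58 did so. The range of at least 1000 counts has no upper limit, and its lowered genes had 1030, 1367, 1771 and 8596 counts in Siysl1. Relative spread falls as counts rise, so the medians of that range need not compare genes of like counts. The same can hold within the other ranges. These are descriptions, with no test.

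The largest relative spread among lowered genes with at least 50 Siysl1 counts was 48.6%, in a gene on chromosome 1. It had 8, 26 and 21 counts in Siysl1, against 368, 356 and 342 counts in Yugu1. The next, on chromosome 9, had 35, 14 and 37 counts in Siysl1, against 681, 648 and 728 counts in Yugu1. In both genes even the highest mutant library stayed far below the lowest Yugu1 library. The fourth, on chromosome 3, had 43, 66 and 25 counts in Siysl1, against 1138, 1209 and 1225 counts in Yugu1. Replicate 2 was the highest Siysl1 library in 4 of the 5 most variable genes and replicate 3 in 1. Among the 63 lowered genes with at least 50 Siysl1 counts, replicates 1, 2 and 3 were highest in 14.3%, 47.6% and 38.1%. In 17651 other genes at the same minimum levels these shares were 41.1%, 29.1% and 29.8%. They were not tested.

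Siysl1 replicate 1, the library for which every label names SiYSL1, tended to give the lowest Siysl1 values of the lowered genes. Of the 63 lowered genes with at least 50 Siysl1 counts, 34 (54.0%) were lowest in replicate 1, 15 in replicate 2 and 14 in replicate 3. Replicate 1 was lowest in 40.5% and highest in 41.1% of 17651 other genes at the same minimum levels. Its median level in the 63 genes was 0.943 of the genotype's mean, against 1.04 in replicate 2 and 1.03 in replicate 3. A lean of this kind was also seen in the wild type. Yugu1 replicate 1 was lowest in 54 of the 124 genes (43.5%), against 33.5% of 17707 other genes. Its median level in the 124 genes was 0.981 of the Yugu1 mean. These shares were not tested, and the lean is not read as an effect of the labels. Taken alone against Yugu1, replicate 1 gave 118 genes under the same rule, 107 of them among the 124. Read singly, replicates 1, 2 and 3 were at least 8-fold below the Yugu1 mean in 119, 112 and 113 of the 124 genes and at least 4-fold below in all of them. The mean of these same libraries chose the genes, so these counts follow largely from the rule and nothing is read from them.

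The fold was also read with 1 side in a library that had no part in choosing the genes. The rule was applied to 5 libraries at a time, and the genes it found were read in the library left out, set against the same libraries of the other genotype that had helped to choose them. With a Siysl1 library left out, 115 to 125 genes were chosen. Their median fold was 15.9 in replicate 1, 14.2 in replicate 2 and 14.0 in replicate 3 when left out, against 13.8, 14.6 and 14.3 in the libraries that chose them. At least 8-fold differences were seen in 105 of 115, 106 of 123 and 104 of 125 genes in the library left out. Among all genes at the minimum level, 0.869%, 0.864% and 0.813% reached 8-fold in those same libraries. With a Yugu1 library left out, 118 of 124, 111 of 121 and 116 of 123 genes reached 8-fold in it. Among all genes at the minimum level, the shares with these libraries were 0.814%, 0.807% and 0.803%.

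One gene on chromosome 3 went against this pattern and is not among the 124. It had 26, 21 and 286 counts in the Siysl1 libraries, against 143, 225 and 266 counts in the Yugu1 libraries. Siysl1 replicate 3 was thus at the wild-type level while the other mutant libraries were low. It was picked out after its values were seen. The only other gene to come out under 4-fold in a library left out, on chromosome 2, had 17, 7 and 2 counts in Siysl1, against 66, 55 and 76 counts in Yugu1, and is not among the 124 either.

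**Figure D3:**
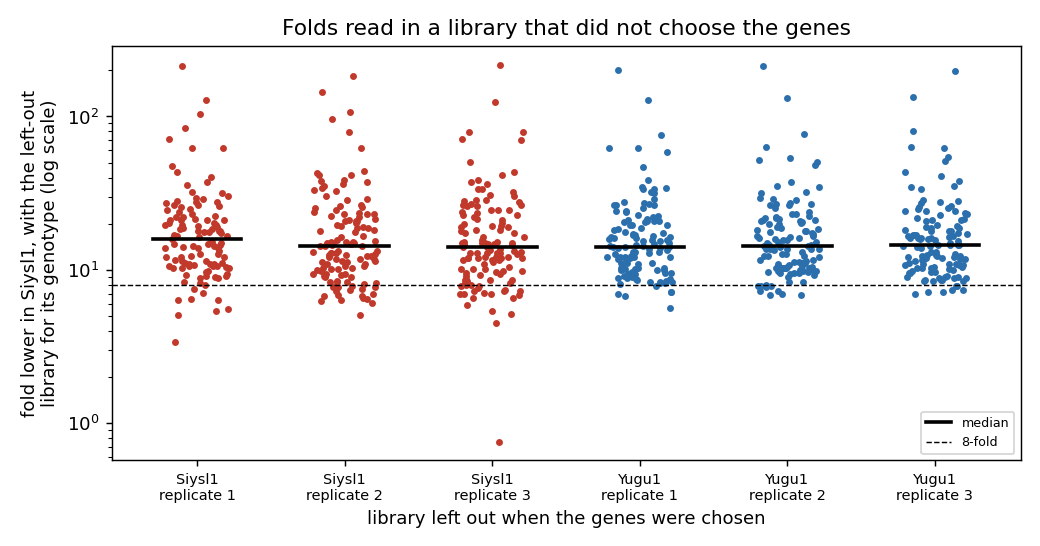
Fold by which genes were lower in Siysl1 (vertical axis, log scale), read with the library named on the horizontal axis standing for its genotype, for genes chosen by the rule from the other 5 libraries. Points are genes, thick bars medians and the dashed line 8-fold; medians lie between 14.0 and 15.9, and the lowest point, in Siysl1 replicate 3, is the chromosome 3 gene at 0.760-fold.

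The lowered genes were not confined to a region of the genome. They lay on all 8 chromosomes the rule allows, with 24 on chromosome 5, 22 on chromosome 9, 17 on chromosome 3, 14 on chromosome 4, 13 each on chromosomes 1 and 2, 11 on chromosome 7 and 10 on chromosome 6. As a share of the annotated genes at 2 CPM or more, they ran from 0.545% on chromosome 2 to 0.913% on chromosome 4. None of the 75 such genes on unplaced sequence was included. Chromosome 4 also held 7 of the 22 genes with no Siysl1 count, and chromosome 6 held none. Median folds were alike, between 13.2 on chromosome 5 and 16.3 on chromosome 3.

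**Figure D4:**
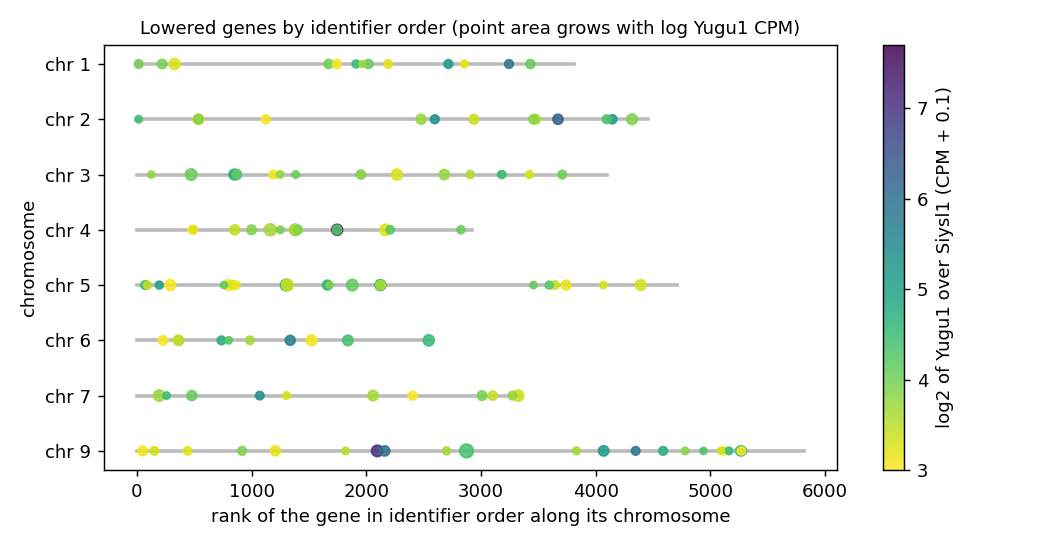
Place of the 124 lowered genes in identifier order (horizontal axis, rank of the gene along its chromosome) on chromosomes 1 to 7 and 9 (vertical axis), with grey lines for all identifiers of a chromosome. Colour gives the log2 fold of Yugu1 over Siysl1 and point area grows with the logarithm of Yugu1 CPM; points are found along every chromosome, with 24 on chromosome 5.

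Some lowered genes were direct neighbours in identifier order. There were 4 such runs with 10 genes in all, a run of 4 on chromosome 5 and pairs on chromosomes 2, 3 and 4. Allowing gaps of up to 10 identifiers, 24 genes fell into 10 groups. No coordinates of the files' genome build were used, so distances in bases are not known. Neighbouring genes can be near-identical copies that share reads, and no source used here says how the authors' counting treated such reads.

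The run on chromosome 5 was the longest. Its first gene had 42, 51 and 45 counts in Siysl1, against 1310, 1377 and 1311 counts in Yugu1. Its second gene had 80, 115 and 114 counts in Siysl1, against 1664, 1682 and 1748 counts in Yugu1. Both were low in every mutant library. The third gene had 36, 36 and 30 counts in Siysl1, against 476, 446 and 518 counts in Yugu1, and the fourth had 13, 9 and 18 counts in Siysl1, against 153, 175 and 191 counts in Yugu1. The differences were 27.7-, 16.4-, 13.2- and 10.8-fold in identifier order.

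Per length, the 4 genes of the run stood at 1.34, 5.19, 2.34 and 0.718 FPKM in Siysl1, against 40.2, 88.2, 33.9 and 9.67 FPKM in Yugu1. All 4 were shorter than the median tested gene, at 0.799, 0.465, 0.341 and 0.432 of its length. Another lowered gene stood 4 places before the run, with 0.22 CPM in Siysl1 and 4.13 CPM in Yugu1. The genes on either side of the run were nearly without counts, with 0 in Siysl1 and 2 in Yugu1 on one side and 3 in Siysl1 and 25 in Yugu1 on the other. The next gene beyond was strongly expressed and nearly equal, at 78.7 CPM in Siysl1 and 74.1 CPM in Yugu1. The low values thus ended within 2 places of the run on that side. Before the run, the gene 2 places away was not lowered either, at 3.45 CPM in Siysl1 and 3.06 CPM in Yugu1.

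Seita.4G174600.v2.2 formed a pair with the gene before it. That gene had 24, 21 and 23 counts in Siysl1, against 513, 505 and 455 counts in Yugu1, 19.4-fold lower. The lengths implied for the pair were 0.318 of the tested median for Seita.4G174600.v2.2 and 0.312 for its neighbour, so both are short genes of similar length. Genes just outside the pair did not follow. The nearest one on each side at 2 CPM or more had 6.75 CPM in Siysl1 and 5.21 CPM in Yugu1 before it and 97.8 CPM in Siysl1 and 127 CPM in Yugu1 after it.

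Seita.9G287400.v2.2 stood in a neighbourhood of several low genes, although none of them met the rule. The gene directly before it had 12382, 13921 and 14323 counts in Siysl1, against 52116, 44564 and 48410 counts in Yugu1, or 426 ± 23.1 CPM in Siysl1 and 1547 ± 77.7 CPM in Yugu1 (SD, n = 3 each), 3.63-fold lower. Read per library, it too showed no overlap. The gene 4 places after it had 9.89 ± 1.27 CPM in Siysl1 and 53.4 ± 1.69 CPM in Yugu1, 5.36-fold lower. The genes 6 and 7 places after it had no count in Siysl1, against 755 and 387 counts in Yugu1. Others in the same stretch went the opposite way, such as the gene 10 places after it, with 6.30 CPM in Siysl1 and 1.46 CPM in Yugu1.

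**Figure D5:**
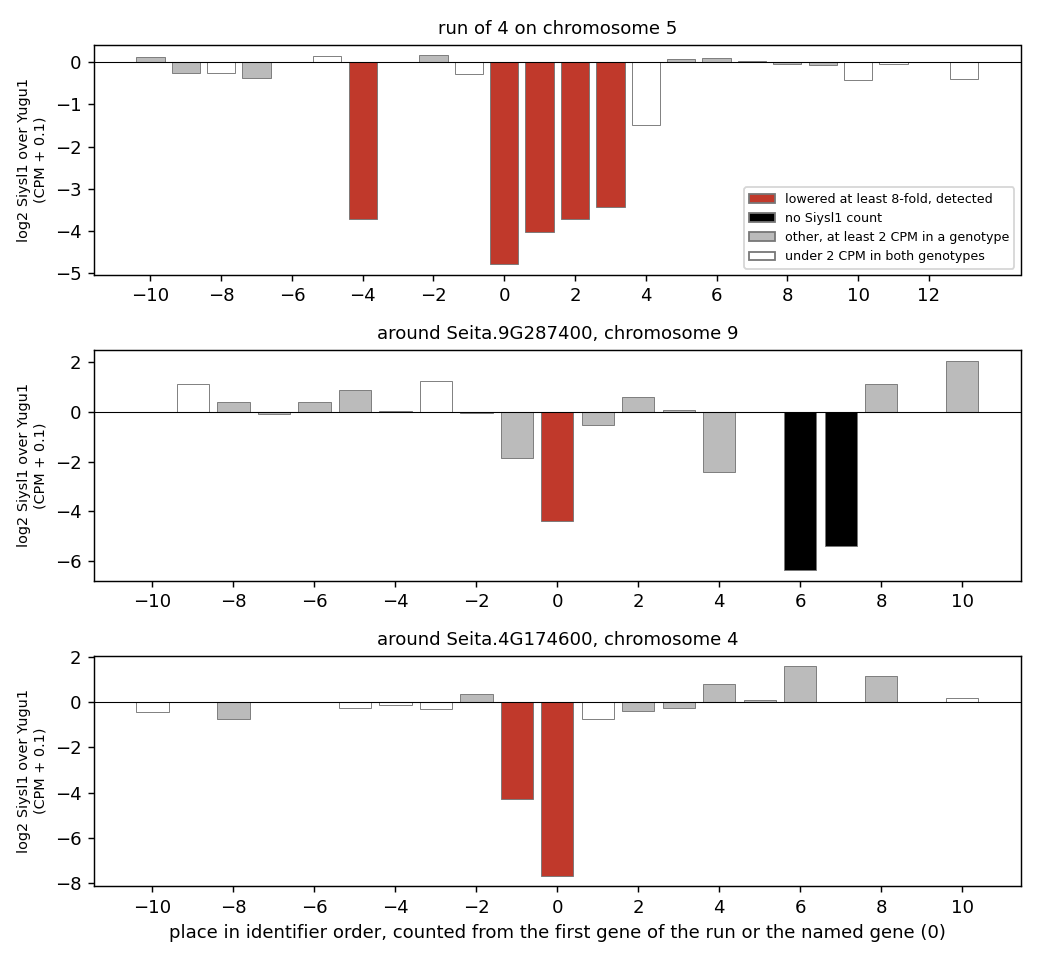
Log2 of Siysl1 over Yugu1 (vertical axis, mean CPM + 0.1 of 3 libraries each) for genes in identifier order (horizontal axis) around the run of 4 on chromosome 5, Seita.9G287400.v2.2 and Seita.4G174600.v2.2. Red bars are lowered genes of the set, and black bars genes with no Siysl1 count, whose depth is set by the added 0.1 CPM. Grey bars are other genes at 2 CPM or more and open bars genes under 2 CPM in both genotypes. Bars directly next to the red ones are mostly short. The deeper ones are the grey bar before Seita.9G287400.v2.2, at -1.86, and the open bar after the run of 4, at -1.49.

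Across the whole set, direct neighbours that were not themselves in it showed a small lean to lower values. Of 138 such neighbours at 2 CPM or more in either genotype, 16 (11.6%) were at least 2-fold lower in Siysl1 and 10 (7.25%) at least 2-fold higher. The 16 include 2 genes with no Siysl1 count. At 2, 3, 5 and 10 places the share at least 2-fold lower was 7.53%, 4.72%, 3.55% and 2.08%. The background was all 18713 annotated genes at that level outside chromosome 8 and the set, these neighbours included. There 4.31% were at least 2-fold lower and 10.6% at least 2-fold higher. The median log2 value of direct neighbours was -0.04, against 0.10 in that background. The shares rest on few genes and were not tested. A direct neighbour without any Siysl1 count was found for 2 of the 124. In the stronger case, on chromosome 2, the lowered gene had 0.293 ± 0.180 CPM in Siysl1 and 30.4 ± 0.92 CPM in Yugu1, and its neighbour had no count in Siysl1 and 15.8 ± 1.16 CPM in Yugu1 (SD, n = 3).

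Gene length, which the rule did not use, was near that of other genes. The length implied by counts and FPKM was 0.949 of the tested median in the median lowered gene, and 1.03 of it in the median annotated gene at the same minimum level. Of the 124 genes, 69 (55.6%) were shorter than the tested median, against 47.7% of the annotated genes at that level. The lengths ran from 0.220 to 3.14 times the tested median. The 10 genes highest in Yugu1 ran from 0.273 to 2.32 times, so the order by CPM and by FPKM differs within the set.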

How the data were processed

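RNA of 6 spikelet libraries, 3 of Siysl1 and 3 of Yugu1, was analysed from 2 tables. The authors deposited raw counts per gene, whole numbers that were not normalized, and FPKM, fragments per kilobase scaled to library size, per the names of the deposited tables. The aligner, counter, genome build and use of strand are stated by no source used here. CPM was computed from the counts and the column totals. The members and the lists were chosen with earlier results of these data known. The background of calls came from edgeR 4.0.16 (R 4.3.3), by its quasi-likelihood test of the deposited counts (TMM, filterByExpr, genotype as the only term, Benjamini-Hochberg adjustment over 25117 genes), tested on simulated data. Alternatives used DESeq2 1.42.0 and limma 3.58.1 on log2(FPKM + 1). Ratios of counts have exact 95% intervals (Clopper-Pearson, conditional on the summed counts), which cover counting error only; reads are not independent molecules. The length of a gene was its CPM over its FPKM, the median over libraries, relative to the median of the genes tested. The rule for named genes took by identifier the gene highest in Yugu1 and that of largest fold among those with counts in every Siysl1 library. By chromosome only, it took the 10 highest in Yugu1, the 10 largest folds of that kind, the 5 of largest relative spread over Siysl1 with at least 50 counts and the longest run of neighbours. Chromosome and order were read from the identifiers. The labels call the libraries separate individuals, and spreads are between them.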

Additional observations from a re-analysis of the deposited data

How the results depend on the processing

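Counts of lowered genes follow the limits by construction: 288 at a fold limit of 4, 54 at 16, and 69 with 0.5 CPM added in place of 0.1, against the 124 reported. TMM scaling gave 134, including all 124, and FPKM folds gave 120, of which 117 are shared. A minimum of 5 or 1 CPM gave 88 or 150, and at least 10 Siysl1 counts gave 105. Leaving out 1 library gave 115 to 125. The median log2 value of -3.88 was -3.96 with TMM, -3.78 with FPKM, -3.15 with 0.5 CPM added and -3.90 to -3.79 without 1 library; the added constant pulls weak genes towards 0 by construction, and the cause of the other moves was not tested. All 124 genes were also called lower in the 12 other fits, in which the share of all genes called lower was 22.2% with no scaling factor, 24.6% with no filter, 22.5% with DESeq2, 18.2% with limma, 25.9 to 29.1% without 1 library and 23.5% with Siysl1 replicate 1 alone, a fit that assumes the lone library varies as the Yugu1 libraries do. The genes were chosen by this contrast, so these counts say nothing about stability. Deviations of libraries with the same number correlated at 0.06, 0.07 and 0.04 over 25117 genes, short of the 0.1 required, and the numbers were not taken as pairs, although all 6 libraries were closest to their own number; with the replicate block 124 of 124 were called, and 29.7% of all genes tested. The 10 genes in runs stayed 10 with the next member allowed within 2 ranks, without any 1 library and with Siysl1 replicate 1 alone. Runs were not counted again under the other fold limits, added constants, scalings or minimum levels, so their dependence on these is not known. Genes with counts in every Siysl1 library were 101, or 95 at 3 counts in each, and 102 to 109 without 1 Siysl1 library, which can only add genes. The alternatives for runs, for these counts without a library and for calls with replicate 1 alone were chosen after seeing the data.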

Other observations

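Genes outside the set's bounds met its numbers too. On chromosome 8, 7 of 1011 genes at 2 CPM or more in Yugu1 were at least 8-fold lower and detected in Siysl1, as were 7 of 635 new loci outside the annotation. Genes raised by the mirrored rule had a median of 10.4 CPM in Siysl1 and 0.607 CPM in Yugu1, with a median fold of 11.7, and the highest of them reached 1478 CPM in Siysl1.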
